A study of Homo sapiens with 8 samples.

Results

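TMEM242 is transcribed from the minus strand of chromosome 6, and its locus was taken as the minus strand of chromosome 6 from 157710000 to 157745000 on build hg19, an interval of 35000 bases. Every peak that the 4 lists of RBPMS-bound RNA placed there was included, which gave 142 peaks of the 194003 listed in all. Of these, 141 lay in a dense run of 3934 bases, from 157731460 to 157735393, and 1 lay in the other 31066 bases. The run was selected on the number and the log2 folds of its peaks in these same libraries. Its peak density and its enrichment are therefore given as descriptions, and no test was made on them.

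The libraries come from the established human embryonic stem cell line HUES6, wild type, grown in FTDA medium and labelled as control for treatment. Each dish held about 20M cells when it received ultraviolet light at 400 mJ/cm2, and RNA was recovered with an antibody specific to RBPMS in 4 eCLIP libraries. The 4 input libraries, made without antibody, enter only through the deposited comparison of each eCLIP library with input. All 8 libraries share this cell line, genotype and treatment, so the series holds no cells without RBPMS and no eCLIP library with another antibody.

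RBPMS is an RNA-binding protein with an RNA recognition motif domain. It works as a dimer and prefers RNA that carries paired CAC elements, and it is known as a regulator of splicing in smooth muscle. In eCLIP, ultraviolet light links a protein to the RNA it touches, and reads of the recovered RNA pile up as peaks around the linked bases. TMEM242 encodes a membrane protein of mitochondria that takes part in assembling the ATP synthase and respiratory complex I. In RefSeq on GRCh38.p14 the gene lies next to the divergent long noncoding RNA TMEM242-DT, and the pseudogenes LDHAL6FP and LOC124901551 overlap it. The place of the run relative to exons, introns and untranslated regions was not analysed here, because no hg19 annotation was used. No sequence of the run is printed, because no hg19 genome sequence was used.

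Libraries 1 to 4 listed 25759, 118375, 20254 and 29615 peaks. The immunoprecipitation reads of libraries 3 and 4 over 303 shared peaks differed by less than sampling noise (chi-square test, 0.91 per degree of freedom, p = 0.873), whereas the other 5 pairs gave 2.51 to 4.05 per degree of freedom. They were counted as 1 sample, so a mean ± SD is over n = 3 samples, namely library 1, library 2 and the mean of libraries 3 and 4. Nothing states that the libraries came from separate cultures, and their spread may be technical.

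The first question was how RBPMS binding was spread along the TMEM242 transcript. Each library placed all or nearly all of its peaks within the same short run. Library 1 listed 29 peaks in the run and 0 in the rest of the interval. Library 2 listed 48 in the run and 1 outside it. Library 3 listed 29 and 0, and library 4 listed 35 and 0. The run made up 11.2% of the interval and held 99.3% of its peaks.

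Every one of the 141 peaks in the run was enriched, meaning a log2 fold over input of at least 3 (8-fold) with a −log10 p of at least 3. Over all listed peaks these thresholds were met by 15.9%, 5.38%, 12.6% and 12.7% of the peaks in libraries 1 to 4. The enriched peaks of the run numbered 36.3 ± 10.2 per sample (SD, n = 3). They amounted to 0.71%, 0.75%, 1.14% and 0.93% of all enriched peaks in libraries 1 to 4. Of the enriched peaks on the minus strand of chromosome 6 they were 38.7%, 33.1%, 40.8% and 39.8%. The lists of the 100 peaks with the highest log2 fold in each library held 17, 24, 21 and 18 peaks of the run. Its highest peak ranked 2 in libraries 1 and 3, 4 in library 4 and 7 in library 2.

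**Figure D1:**
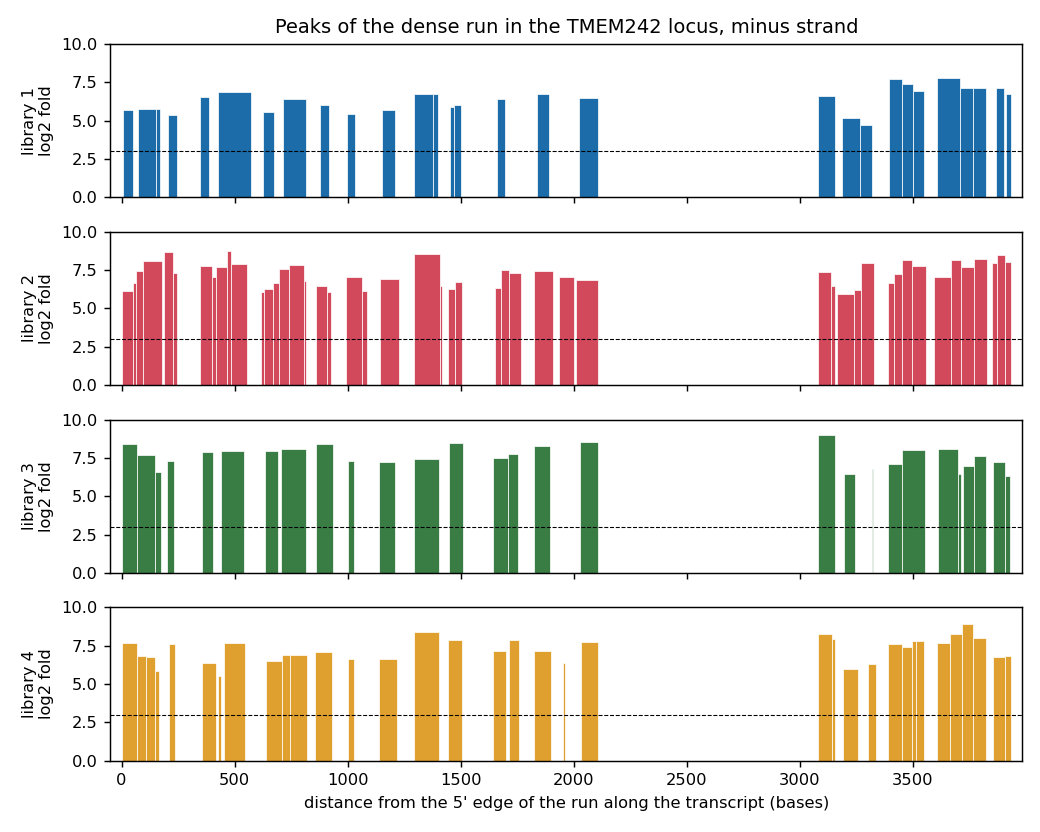
Peaks of the dense run in the 4 eCLIP libraries. The x axis is the distance in bases from the 5′ edge of the run along the minus-strand transcript, bar width is peak width, bar height is the deposited log2 fold over input, and the dashed line marks a log2 fold of 3. All 141 bars stand above the line, and a stretch of 973 bases holds no bar in any library.

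The level of enrichment in the run was high in all 4 libraries and lowest in library 1. In library 1 the log2 fold of its peaks ran from 4.75 to 7.78 with a median of 6.45. In library 2 it ran from 5.93 to 8.72 with a median of 7.26. Library 3 had 5.89 to 9.03 with a median of 7.66, and library 4 had 5.50 to 8.90 with a median of 7.15. The median over samples was 7.04 ± 0.52 (SD, n = 3), where the median of all enriched peaks was 4.37 ± 0.20. The ranges of the 4 libraries overlapped widely.

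The rest of the transcript was close to bare. Its only listed peak, in library 2 at 157713371 to 157713435, had a log2 fold of 1.38 and a −log10 p of 0.55, which rested on 5 immunoprecipitation reads and 2 input reads, and it was not enriched. The median of the run in library 2 stood 5.88 log2 units above it, and no such difference exists in the other libraries, which listed nothing outside the run. Set against all other listed peaks of the minus strand of chromosome 6, the median of the run was higher by 3.19, 5.88, 4.98 and 5.02 log2 units in libraries 1 to 4, or 4.69 ± 1.37 (SD, n = 3). A peak had to be called to be listed, so an unlisted stretch of the transcript may hold RNA at a level too low for a call, and the reads there are not in the lists.

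The plus strand of the interval held 0 peaks in each of the 4 libraries. Beyond the interval the minus strand was also sparse. Toward lower coordinates, the 3′ direction of the transcript, the next listed peak lay 4408 kb away in library 1, 2116 kb in library 3 and 2125 kb in library 4. In library 2 it lay 2129 kb away, beyond the single weak peak inside the interval. Toward higher coordinates the next listed peak lay 841, 797, 840.4 and 840.4 kb away in libraries 1 to 4. No enriched peak stood closer than 840.4 kb on that strand in any library. The run thus had no enriched peak near it on the strand. The whole minus strand of chromosome 6 held 75, 145, 71 and 88 enriched peaks in libraries 1 to 4, the run included. Enriched peaks were sparse all along it, and whether these distances are unusual there was not tested.

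The second question was how the run is built. Enriched peaks were merged into regions where they overlapped by at least 1 base on the strand, whichever library listed them, and 17 regions of the run were enriched in at least 3 libraries, the criterion for a reproducible region. All 17 were enriched in 4 of 4 libraries. Over the whole series 22.7% of 7472 merged regions were enriched in at least 3 libraries and 12.6% in all 4. No reproducible region lay in the rest of the interval. A further 4 regions of the run were enriched in fewer libraries. The one at 157733391 to 157733458 was enriched in libraries 2 and 4, at log2 folds of 7.06 and 6.35. The other 3 were enriched in 1 library each and were 3, 11 and 23 bases wide, with log2 folds of 5.89 in library 3 and of 6.45 and 6.16 in library 2.

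The 17 regions were 58 to 233 bases wide, with a median of 96. The 141 peaks of the run were narrow, with median widths of 50, 42.5, 62 and 55 bases in libraries 1 to 4, against 75, 89, 80 and 81 bases for all enriched peaks of those libraries. Many peaks directly abutted their neighbours, and the peak numbers within a region are those of the authors' division. Library 2, with the longest list, divided the run into the most peaks. Requiring 20 shared bases for a merge, in place of 1, split the same peaks into 26 reproducible regions.

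The regions fell into 2 blocks separated by a stretch of 973 bases, 157732314 to 157733286, in which no library listed a peak. The block at lower coordinates, 157731460 to 157732313, was 854 bases long and held 5 regions. The block at higher coordinates, 157733287 to 157735393, was 2107 bases long and held 12 regions. On the transcript the longer block comes first. Both had a similar density of regions, 5.85 per kb in the shorter and 5.70 per kb in the longer block. The other 17 stretches without a listed peak were 7 to 101 bases long, with a median of 47.

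Within the blocks, midpoints of neighbouring regions were 126 to 260 bases apart, with a median of 176 and a mean of 183 ± 45.9 (SD over 15 distances). The spacing depends on how peaks are joined: over all 16 distances the median was 179 bases between regions, but 82.8 bases between the enriched peaks of each library, as a mean over samples. Enriched peaks of at least 3 libraries covered 1713 bases, 43.5% of the run, and those of all 4 libraries covered 1393 bases, 35.4%. The same share by library was 41.0%, 55.0%, 43.0% and 45.1% in libraries 1 to 4. In the shorter block 71.1% of the bases were covered in at least 3 libraries, and in the longer block 52.5% were.

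The edges of the regions recurred closely between libraries in some regions only. Over the 17 regions, the outermost edge at the higher coordinate, the 5′ side on the transcript, differed by 1 to 33 bases between the 4 libraries, with a median of 14. The edge at the lower coordinate differed by 2 to 70 bases, also with a median of 14. Both edges lay within 10 bases in all 4 libraries in only 4 of the 17 regions. Among these 4, in the region at 157732238 to 157732313 both edges differed by 2 bases. In the region at 157733987 to 157734100 the 5′ edge differed by 1 base and the 3′ edge by 6 bases.

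The value of a region in a library is that of its highest enriched peak, which can favour regions divided into many peaks. By this value the region with the highest mean, 157731567 to 157731799, had log2 folds of 7.78, 8.23, 8.08 and 8.90 in libraries 1 to 4, or 8.17 ± 0.36 (SD, n = 3). The neighbouring region at 157731838 to 157732005 had 7.70, 8.14, 8.01 and 7.83, or 7.92 ± 0.22. These neighbours in the shorter block were the 2 regions with the smallest spread between samples. At 157734823 to 157735046, in the longer block, the log2 folds were 6.89, 8.72, 7.98 and 7.68, or 7.81 ± 0.91. The region at 157733987 to 157734100 had 6.72, 8.55, 7.43 and 8.38, or 7.73 ± 0.93. The fifth, 157731460 to 157731542, forms the 3′ edge of the run on the transcript and had 7.13, 8.46, 7.25 and 6.84, or 7.54 ± 0.80. With the mean of a region's enriched peaks in place of the highest, the region at 157733987 to 157734100 came first with 7.73, the region at 157731567 to 157731799 had 7.63 and that at 157731838 to 157732005 had 7.47, so the highest rank turned with the value used.

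The 3 lowest regions were still far above input. At 157732059 to 157732230 the log2 folds were 5.18, 7.99, 6.79 and 6.28 in libraries 1 to 4, or 6.57 ± 1.40 (SD, n = 3). The region at 157734166 to 157734255 had 5.68, 6.90, 7.25 and 6.65, or 6.51 ± 0.72. The region at 157734330 to 157734401 had 5.46, 7.08, 7.29 and 6.65, or 6.50 ± 0.91, the lowest by its highest peaks. By the mean of enriched peaks it stayed at 6.50, and the region at 157732059 to 157732230 was lowest with 6.02. Library 1 gave the lowest value in each of them. The means of all 17 regions spanned 6.50 to 8.17 with a median of 7.24, with an SD over regions of 0.50. The median SD between samples within a region was 0.90, which includes the offset of library 1, and 0.57 once each sample was centred on its own mean over the 17 regions.

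**Figure D2:**
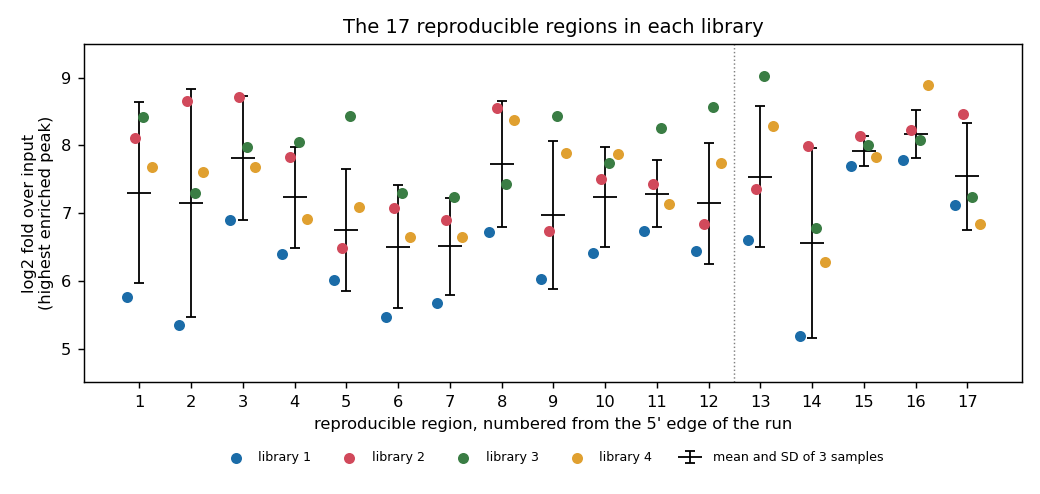
Log2 fold over input of the 17 reproducible regions, numbered from the 5′ edge of the run. Coloured points are the 4 libraries, black bars are the mean and SD of 3 samples with libraries 3 and 4 averaged, and the dotted line marks the stretch between the blocks. Library 1 is lowest in 16 regions, and the means lie between 6.50 and 8.17.

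All 17 merged regions held enriched peaks of all 4 libraries, but the order of their levels recurred in only part of the pairs. Across the 17 regions Spearman's rho of the log2 fold was 0.56 between libraries 3 and 4 and 0.57 between libraries 1 and 4. It was 0.35 between libraries 1 and 2, 0.27 between 1 and 3, and 0.17 between 2 and 4. Between libraries 2 and 3 it was -0.45. Averaged over all 6 pairs rho was 0.24 ± 0.37 (SD over pairs), and with libraries 3 and 4 joined as 1 sample rho was 0.52 against library 1 and -0.05 against library 2. The average over pairs was 0.46 without library 2, 0.36 without library 3, 0.09 without library 1 and 0.06 without library 4. These are correlations across neighbouring regions of 1 transcript, which are no independent replicates, and each point shares its library and depth with the others. Library 3 gave the highest value in 9 regions, library 2 in 6 and library 4 in 2.

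The shorter block, at lower coordinates, had the higher median in 3 of 4 libraries. Its median log2 fold exceeded that of the longer block by 0.91 in library 1, 0.67 in library 2 and 0.19 in library 4, and the difference was -0.0055 in library 3. Over samples the difference was 0.56 ± 0.42 (SD, n = 3). The blocks were defined after the values were seen, and the difference was not tested. Description codes place libraries 1 and 2 in one set and libraries 3 and 4 in another, and the part of that set in the difference was not tested.

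The third question was how many reads stood behind these folds. The read numbers can be worked out from each pair of deposited values. The log2 fold is the log2 ratio of a pair of whole read numbers plus a constant of the library, and a −log10 p at the ceiling of 15.7 was found where one of them is below 5. Over all 4 lists 2472 peaks sat at that ceiling, and for 2472 of them the ratio fitted a pair with a read number below 5. The constant was set on the assumption that the commonest log2 fold above 0 in a list is 3 immunoprecipitation reads over 1 input read. The depth of input over immunoprecipitation given by the constant was 3.18, 1.04, 2.12 and 1.46 in libraries 1 to 4.

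Immunoprecipitation reads were many and input reads few. Of the 141 peaks of the run, 114 sat at the ceiling and so had 1 to 4 input reads, and the other 27 had at least 5. For 59 peaks the ratio allowed a single input read, and an input of 0 may have been entered as 1. The smallest immunoprecipitation reads that fit a peak had medians of 117, 279, 116 and 226 in libraries 1 to 4, and the lowest were 33, 65, 28 and 31. Among the enriched peaks of the whole lists whose reads were unique, which excludes peaks at or above the ceiling, the medians were 12, 27, 14 and 18. All 141 peaks of the run were at or above the ceiling, so these medians come from weaker peaks only. They are given for scale, and a higher number in the run follows from that exclusion. In library 1 exact numbers were found for 11 peaks of the run, with 76 to 129 immunoprecipitation reads over 5 to 10 input reads.

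The input reads behind library 1 were more numerous. Which input library entered each list is not stated, so input reads and input depth are those behind a list's values and not of a named input library. At least 5 input reads were found behind 19 of its 29 peaks, against 6 of 48 in library 2, 1 of 29 in library 3 and 1 of 35 in library 4. Its list also had the deepest input relative to immunoprecipitation and the lowest log2 folds. Whether that input depth has a part in those lower folds was not tested. The highest value of the run, 9.03 in library 3 at 157732238 to 157732313, corresponded to at least 246 immunoprecipitation reads over 1 input read. The highest of library 4, 8.90 at 157731567 to 157731799, corresponded to at least 328 reads over 1.

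Counting error alone left wide intervals around these folds. For the smallest read numbers that fit each peak, the lower end of the exact 95% Clopper-Pearson interval of the log2 fold had medians of 4.86, 5.33, 5.37 and 5.38 in libraries 1 to 4. It stayed above a log2 fold of 3 for 140 peaks and was 2.91 for 1 peak, in library 4. At 157731567 to 157731799 the lower ends for the highest peaks were 6.22, 5.74, 6.21 and 6.41. These intervals take no account of amplification copies or of how reads were placed, so they cover counting error only. The run was selected for its high folds, and the intervals take no account of that either. They describe the selected peaks and are no test of enrichment. Values at the ceiling or at 400, the largest −log10 p in the lists, have no order among themselves.

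**Figure D3:**
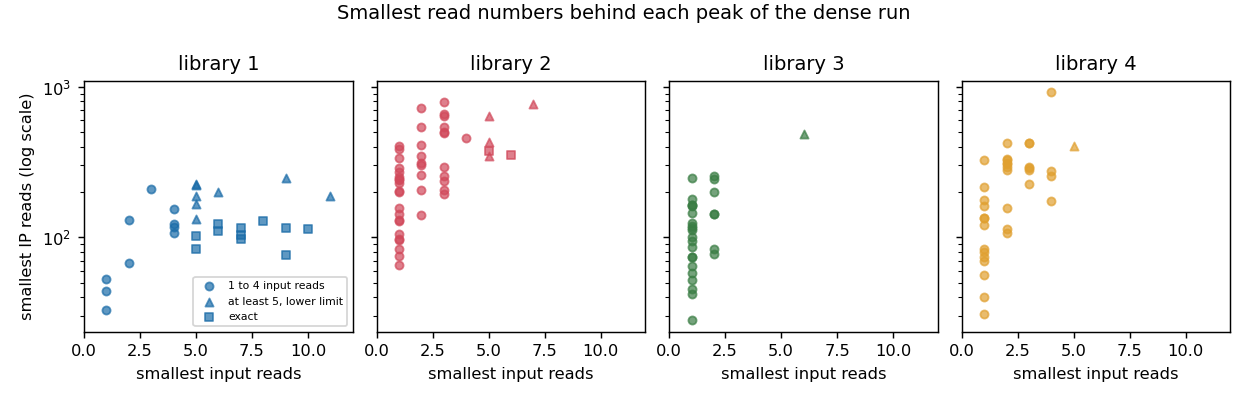
Smallest read numbers that fit each peak of the run, with input reads on the x axis and immunoprecipitation (IP) reads on a log y axis, 1 panel per library. Circles are peaks with 1 to 4 input reads, triangles are peaks with at least 5 input reads whose numbers are lower limits, and squares are exact. Most points of libraries 2, 3 and 4 lie at 4 input reads or fewer, whereas 19 of 29 in library 1 lie at 5 or more.

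The last question was how the run compares with other runs of RBPMS peaks. Reproducible regions of one strand at most 5 kb apart were joined, which gave 69 runs of at least 4 regions. The TMEM242 run, with 17 regions, was second in number to a run on the minus strand of chromosome 3, 195505957 to 195515555, with 23 regions, of which 18 were enriched in all 4 libraries. The next, on the minus strand of chromosome 16 from 907408 to 909941, held 10 regions with 6 in all 4 libraries. Regions enriched in all 4 libraries numbered 4.32 per kb in the TMEM242 run, 1.88 per kb in the chromosome 3 run and 2.37 per kb in the chromosome 16 run, and 5 of the 69 runs had more per kb.

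The median log2 fold of listed peaks, averaged over samples, was 7.04 in the TMEM242 run, 5.61 in the chromosome 3 run and 4.96 in the chromosome 16 run. None of the 69 runs exceeded the TMEM242 run, the second highest reached 6.83, and the median over runs was 4.81. Since the run was chosen for its density and its folds, these ranks are descriptions.

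The number of peaks around a run is likewise given as a description. Within 20 kb of either edge, on the same strand, the 4 lists together held 1 peak beside the TMEM242 run, 11 beside the chromosome 3 run and 13 beside the chromosome 16 run. The median over the 69 runs was 23, the highest was 92, and 3 runs had 0. The TMEM242 run was thus among the 4 of 69 with at most 1 listed peak in its flanks. The flanks were not limited to transcribed sequence for any run. The TMEM242 interval ended 9607 bases above the run, so the flank on that side reached beyond it. The level of each transcript outside its peaks is not in the lists.

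**Figure D4:**
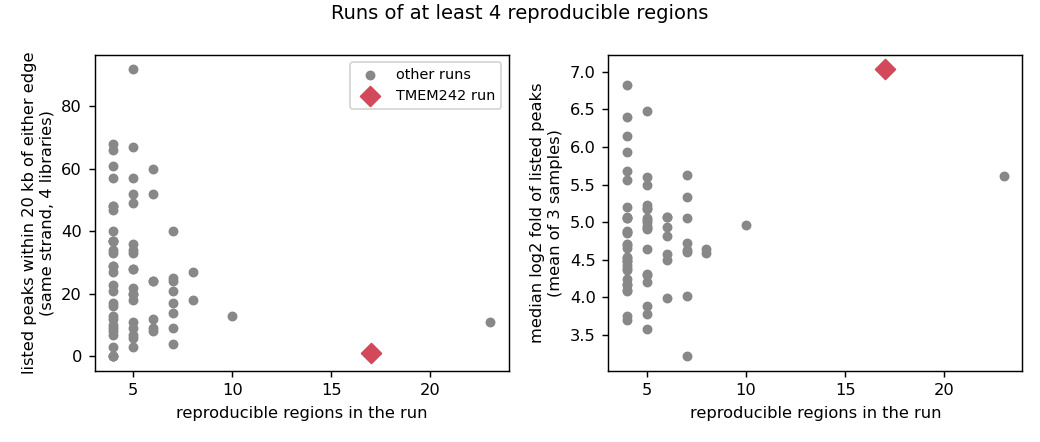
The 69 runs of at least 4 reproducible regions, by number of regions on both x axes. The y axis is the number of listed peaks within 20 kb of either edge on the left and the median log2 fold of listed peaks, as the mean of 3 samples, on the right. The red diamond is the TMEM242 run, with 17 regions, 1 flanking peak and a median of 7.04.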

How the data were processed

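Each of the 4 eCLIP libraries has 1 peak list, in hg19 coordinates per the submitters' processing notes. Per peak, the authors' deposited values are a −log10 p of immunoprecipitation against input and a log2 fold of immunoprecipitation over input. They were used here as deposited, to describe, rank and filter peaks, and the sources used here name no aligner, peak caller or treatment of repeated sequence. The members, thresholds and gene locus were chosen with earlier results of these data known. Peaks that overlapped the interval on the minus strand were members. The regions described in full are the 5 highest and 3 lowest by mean log2 fold, where a region's value in a library is its highest enriched peak.

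Read numbers were accepted where the log2 fold fitted within 2e-08. Where the −log10 p was neither at the ceiling nor at 400, a test also had to give it within a relative 0.003. With both numbers at least 5 this was the continuity-corrected chi-square test. Otherwise it was an exact binomial test, in place of Fisher's exact test at large totals. On 936 simulated peaks 100% came back with 0 wrong, and 264 of 264 simulated pairs at the ceiling were among the allowed ones. The simulation used the same tests and the same constants, so it checks the working back only. Reads were unique for 91.0% to 98.1% of peaks with log2 above 0 below the ceiling. Libraries were compared by chi-square over peaks below the ceiling that shared 80% of the longer peak. Their immunoprecipitation reads, summed over both libraries, had to reach at least 40. Python 3.11.15, pandas 2.3.3, numpy 2.4.6 and scipy 1.17.1 were used.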

Additional observations from a re-analysis of the deposited data

How the results depend on the processing

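No paired analysis was possible because no input library has a peak list that could be paired with the eCLIP library of its number. Of 55 alternative values of the main results, 9 could not change, since every peak of the run lies far past the stricter p and the looser fold and far from the interval's ends. Of the other 46, 43 stayed within 1.5 times a count or within 1 SD. Region counts in the interval and in the run were the same numbers throughout, so each of their alternatives entered this tally for both. The exceptions were the 26 regions that a merge on 20 shared bases gave, in the interval and in the run alike, which follows from fewer joins, and the median spacing, 179 bases between regions but 82.8 between the enriched peaks of each library, which are parts of regions. Some of the 43 could not change either, since all 17 regions were enriched in all 4 libraries. Asking for all 4 libraries left the region counts and their spacing fixed. Asking for all 3 samples, with libraries 3 and 4 joined, left the region counts fixed. Reproducible regions numbered 18 to 20 when single libraries were left out and 2 of the 3 kept had to be enriched. Mean rho over pairs lay between 0.06 and 0.46 with each library left out. The block difference, defined after seeing the data, lay between 0.38 and 0.59. For the run against the rest of the interval, leaving out libraries and a minimum p were not run, since the rest held 1 peak. Depth limits the folds of the run, since 114 of its 141 peaks rest on 1 to 4 input reads.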
